A study of Mus musculus with 2 samples.

Results

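Post-transcriptional regulators of short-lived mRNAs were followed in lung endothelial cells (ECs) soon after melanoma cells had reached the lung. The set comprised 6 genes, chosen by name among the 31053 genes of the count tables: Arid5a, Zc3h12a, Rc3h1, Zfp36, Zfp36l1 and Zfp36l2. They were measured by droplet single-cell RNA sequencing in a control library, from wild-type C57BL/6 mice killed 6 h after a tail vein injection of PBS, and in a metastatic library, from the same strain 6 h after 200000 B16-F10 cells, a mouse skin melanoma line, had been given by the same route. Each library pooled the PECAM1-positive sorted lung cells of 2 mice, and the labels give neither age nor sex, so each group is 1 library. No test between groups was therefore possible: every interval below is a 95% interval for counting error only, which leaves out the spread between cells. Differences between mice, digestions or libraries cannot be told apart from the treatment.

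Inflammatory and growth-related mRNAs are kept short-lived by proteins that bind elements in their 3′ untranslated regions (3′ UTRs). Zfp36 (tristetraprolin) and its relatives Zfp36l1 and Zfp36l2 bind AU-rich elements through a pair of zinc fingers and recruit the CCR4-NOT complex, which removes the poly(A) tail. Zc3h12a (Regnase-1), an endonuclease, and Rc3h1 (Roquin-1) act on stem-loops in an overlapping group of transcripts, while Arid5a binds some of the same stem-loops, that of Il6 among them, and stabilises the mRNA. Zfp36 is itself an immediate early gene, induced within minutes by serum and stress.

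Of the AU-rich elements the nonamer TTATTTATT is the classical Zfp36 family site, and these proteins are known to bind their own family's transcripts. The longest 3′ UTR annotated for each gene in GENCODE M21 (mouse build GRCm38) was searched on the transcribed strand, and the sites in the set are printed with 10 bases on each side, the nonamer in capitals, because 4 of the 6 transcripts hold 1 whereas 8.25% of the 10740 genes with enough UMIs and an annotated 3′ UTR do.

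Rc3h1, chr1:160970043-160970071, plus strand: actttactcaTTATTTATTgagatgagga
Zfp36, chr7:28376951-28376979, minus strand: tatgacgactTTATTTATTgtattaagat
Zfp36l1, chr12:80108167-80108195, minus strand: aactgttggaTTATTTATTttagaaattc
Zfp36l2, chr17:84184914-84184942, minus strand: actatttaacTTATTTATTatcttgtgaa

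All 3 Zfp36 family transcripts thus carried a site, 186 bases from the annotated transcript end in Zfp36, 432 bases in Zfp36l1 and 1002 bases in Zfp36l2. The 3′ UTR of Rc3h1 was the longest of the set, 7181 bases with 20 ATTTA pentamers. The 3′ UTRs of Arid5a (3826 bases) and Zc3h12a (856 bases) held no nonamer and 2 and 3 ATTTA pentamers, respectively. A match is a string in the annotation and was not tested for binding here.

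The promoter table from RefSeq (GRCm38.p6), which spans 250 bases before to 50 bases after each start site, had an entry for 5 of the 6 genes. Both strands were searched for TGACGTCA (CRE), TGANTCA (AP-1), TTCNNNGAA (STAT), an NF-kB motif and the CArG box, the binding element of serum response factor in immediate early genes. The promoters of Zfp36 and Zfp36l1 are shown because these paralogs differed most in the data that follow, with the matched motifs in capitals.

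Zfp36, chr7:28379179-28379478, minus strand: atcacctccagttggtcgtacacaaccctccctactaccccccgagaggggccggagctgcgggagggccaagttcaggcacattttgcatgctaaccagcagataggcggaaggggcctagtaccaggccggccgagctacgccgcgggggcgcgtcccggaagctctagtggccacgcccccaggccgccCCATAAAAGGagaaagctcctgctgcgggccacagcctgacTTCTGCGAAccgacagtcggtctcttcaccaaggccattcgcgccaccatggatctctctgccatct
Zfp36l1, chr12:80112964-80113263, minus strand: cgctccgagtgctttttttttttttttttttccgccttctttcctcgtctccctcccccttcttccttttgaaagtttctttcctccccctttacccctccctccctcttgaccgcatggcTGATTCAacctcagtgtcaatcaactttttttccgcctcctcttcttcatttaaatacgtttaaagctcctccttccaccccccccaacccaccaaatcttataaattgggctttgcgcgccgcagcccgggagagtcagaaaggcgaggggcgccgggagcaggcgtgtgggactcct

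Zfp36 had a CArG box starting 58 bases and a STAT motif starting 17 bases upstream of the start site, motifs held by 1.63% and 8.30% of the 32851 mouse promoters in the table. Zfp36l1 had a TGANTCA match 129 bases upstream, and Rc3h1 had one 133 bases upstream, against 7.81% of all promoters. None of the 5 motifs matched in Arid5a or Zc3h12a.

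A barcode counted as a cell when it had 1000 to 5000 genes and a mitochondrial share under 20%, which left 7134 in the control and 6466 in the metastatic library, with median depths of 6272.5 and 6526.5 UMIs. Classes were set by 2 or more detected markers. Aerocytes (aCap, by Ednrb, Fibin, Tbx2) numbered 1364 control and 1086 metastatic cells, veins (Slc6a2, Car8, Bst1) 247 and 304, and arteries (Gja5, Bmx, Fbln5) 63 and 59. General capillary ECs (gCap, by Gpihbp1, Aplnr, Kit, Lpl) met none of the former classes, though single markers of these were allowed, and numbered 5020 and 4519. The endothelial markers Pecam1, Cdh5, Cldn5, Tie1 and Egfl7 were present in all classes, with a summed level of 4592 to 8170 UMIs per 1000000 UMIs (CPM), and RNA of other cells was present too. In gCap ECs the 4 epithelial markers summed to 1683 CPM in control and 990.3 CPM in metastatic cells, the 4 globins to 1956 and 822.1 CPM, the 4 platelet markers to 174.9 and 271.0 CPM and the 10 leukocyte markers to 56.5 and 66.6 CPM. The metastatic vein class held 3641 CPM of epithelial markers against 122.8 CPM in control, and the metastatic artery class 1464 CPM of lymphatic markers against 2.03 CPM. The part of this RNA in the results was not tested, and 16 cell barcodes were called in both libraries where 6.79 would be shared by unrelated draws.

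Zfp36l1 was the member that differed most between the libraries in capillaries. Control gCap ECs held it at 300.3 CPM (9641 UMIs) and metastatic gCap ECs at 450.4 CPM (13642 UMIs), which gave a log2 ratio of 0.58 (0.55 to 0.62). Of the 11220 genes with 100 or more UMIs in gCap ECs, 3.39% had a ratio as high or higher, and their median log2 ratio was 0.02. The metastatic level was also above the control level in aCap ECs, 265.6 against 164.8 CPM (log2 ratio 0.69, 0.60 to 0.78), and in veins, 616.7 against 432.0 CPM (0.51, 0.40 to 0.63), so that the counting intervals of the libraries lay apart in these 3 classes. In arteries, the class with the fewest cells, the levels were 431.7 and 361.0 CPM, and the interval of the ratio included 0 (0.26, -0.04 to 0.55). In arterial cells thinned to 2000 UMIs the sign turned (-0.27).

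**Figure D1:**
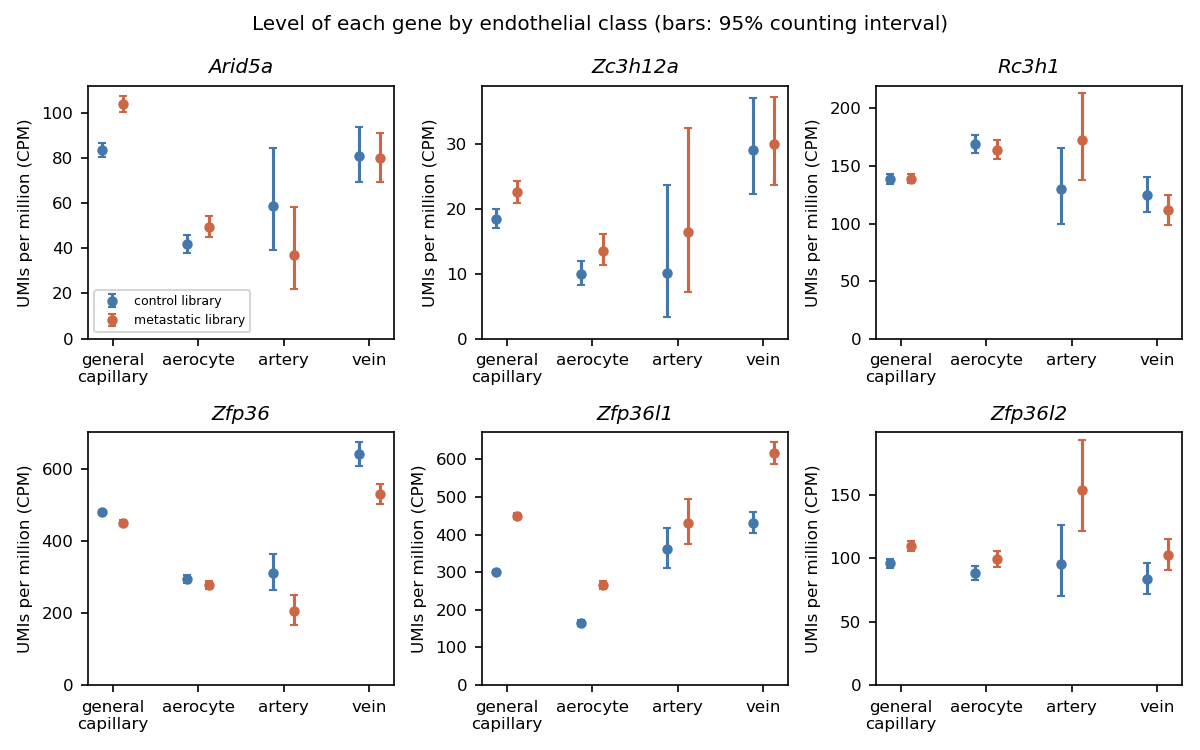
Level of each gene in CPM (vertical axis from 0) in the 4 endothelial classes of the control (blue) and metastatic (orange) library, 1 library each; bars are 95% counting intervals. Zfp36l1 lies higher in the metastatic library in all classes, from 300.3 to 450.4 CPM in general capillary cells, while Zfp36 lies lower; the artery intervals of Zfp36l1 overlap, and the artery difference turned to -0.27 in thinned cells.

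Zfp36, the founding member of the family, had more UMIs than any other member in the control library in all classes but arteries. Its gCap level was 479.0 CPM in control and 450.1 CPM in metastatic cells (log2 ratio -0.09, -0.12 to -0.06), and its aCap level 294.0 and 277.7 CPM (-0.08, -0.16 to -0.01). These differences are small against the spread of all genes, since 24.6% of genes in gCap ECs had a ratio as low or lower. In aCap ECs the sign turned to 0.09 (-0.06 to 0.25) once each cell was thinned to 2000 UMIs. In veins the Zfp36 level was 641.0 CPM in control and 530.7 CPM in metastatic cells (-0.27, -0.38 to -0.17), although the vein ratio was -0.05 (-0.27 to 0.18) in thinned cells. In arteries, from 153 and 100 UMIs, it was 310.3 and 205.6 CPM (-0.59, -0.97 to -0.22), and -0.30 (-0.72 to 0.11) without barcodes bearing leukocyte, platelet, mesenchymal or lymphatic markers.

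Zfp36l2, best known from lymphocytes and oocytes, was the least abundant of the family. It was found at 96.1 CPM in control and 109.8 CPM in metastatic gCap ECs (log2 ratio 0.19, 0.12 to 0.26), and at 88.3 and 99.5 CPM in aCap ECs (0.17, 0.04 to 0.30). The vein levels were 83.4 and 102.8 CPM (0.30, 0.03 to 0.58), although in vein cells without a Fos UMI the ratio was -0.31 (-1.20 to 0.56). The artery levels were 95.3 and 154.2 CPM (0.69, 0.15 to 1.252). The artery value rested on 47 and 75 UMIs, and it was 0.37 (-0.23 to 0.96) without the marker-bearing barcodes named above.

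The make-up of the family therefore differed between the libraries. As 3′ counting gives 1 UMI per captured transcript end whatever the transcript length, UMIs of the paralogs were set side by side as shares. In gCap ECs Zfp36 made up 54.7% (54.1 to 55.3) of the family's UMIs in control and 44.5% (44.0 to 45.1) in metastatic cells. The Zfp36l1 share was 34.3% (33.8 to 34.9) and 44.6% (44.0 to 45.1), and that of Zfp36l2 was 10.98% and 10.87%. Zfp36 and Zfp36l1 thus came level in metastatic gCap ECs, at 13633 and 13642 UMIs. The Zfp36l1 share was likewise 30.1% and 41.3% in aCap ECs and 37.4% and 49.3% in veins. In arteries it was 47.1% (42.0 to 52.3) and 54.5% (49.4 to 59.6), with overlapping intervals.

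**Figure D2:**
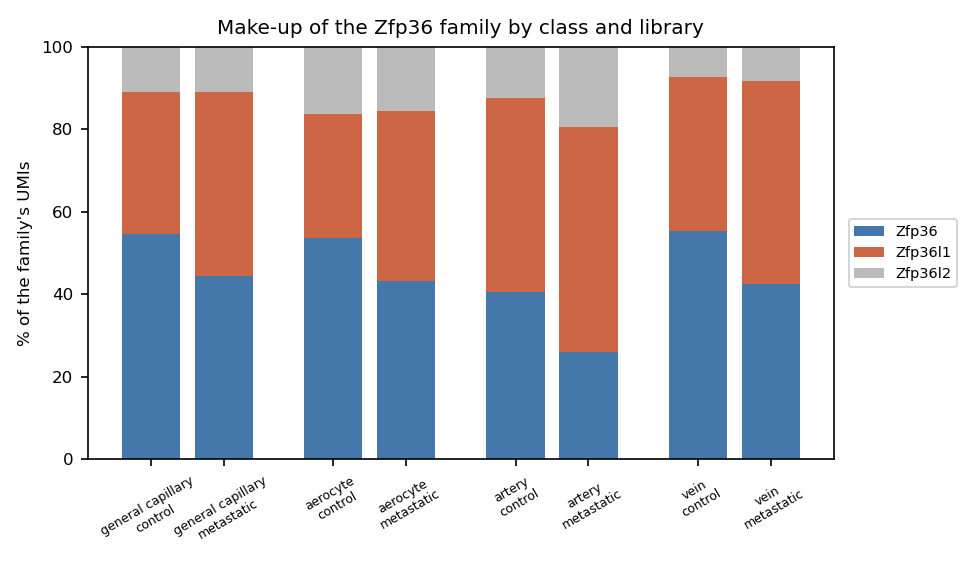
Share of the Zfp36 family's UMIs (percent, vertical axis) taken by each paralog in the 4 classes, control beside metastatic. The Zfp36l1 band is wider in the metastatic library in each class, for example 34.3% and 44.6% in general capillary cells. In arteries the intervals of this share overlap (42.0 to 52.3 and 49.4 to 59.6).

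Arid5a, which opposes Regnase-1 by stabilising bound transcripts, was higher in metastatic capillaries. The gCap levels were 83.7 CPM (2687 UMIs) and 104.2 CPM (3155 UMIs), a log2 ratio of 0.32 (0.24 to 0.39), and 10.8% of genes had a ratio as high or higher. In aCap ECs the levels were 41.9 and 49.6 CPM (0.25, 0.06 to 0.43), a ratio that turned to -0.26 (-0.70 to 0.18) after thinning and to -0.01 without the top 6% of barcodes by UMIs. The venous levels lay together, at 81.1 and 80.0 CPM (-0.02, -0.31 to 0.27), and the arterial counts of 29 and 18 UMIs were too few for a comparison.

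Zc3h12a was the scarcest of the 6 mRNAs. It was found at 18.4 CPM in control and 22.6 CPM in metastatic gCap ECs (log2 ratio 0.29, 0.13 to 0.46) and at 9.98 and 13.5 CPM in aCap ECs (0.44, 0.06 to 0.82). The vein levels of 29.0 and 29.9 CPM did not differ beyond counting error (0.04, -0.45 to 0.54), and arteries held only 5 and 8 UMIs. Rc3h1 was level in gCap ECs, at 138.8 and 139.1 CPM (0.00, -0.06 to 0.06), and its intervals included 0 in aCap ECs (-0.04, -0.14 to 0.05), arteries (0.41, -0.07 to 0.90) and veins (-0.16, -0.40 to 0.08).

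Counted by size of the difference, 1 of the 6 members, Zfp36l1, had a log2 ratio of 0.32 or more in gCap ECs, against 10.5% of all genes tested, and none one as low as -0.32, against 5.87%. At 1.5-fold none was higher, against 3.38%, or lower, against 1.80%. Zfp36l1 at 1.49966-fold lay just under the second limit, and Arid5a at 0.315 just under the first (0.322). In aCap ECs 2 of the 6, Zc3h12a and Zfp36l1, passed 0.32 (9.50% of genes) and none -0.32 (5.15%), and in veins 1, Zfp36l1, passed 0.32 (12.0%) and none -0.32 (10.5%). In arteries, where 4 members reached 100 UMIs, 2 passed 0.32 (Rc3h1 and Zfp36l2; 16.8% of genes) and 1 passed -0.32 (Zfp36; 13.4%). With 4 to 6 genes a class, these counts were not tested against the background.

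**Figure D3:**
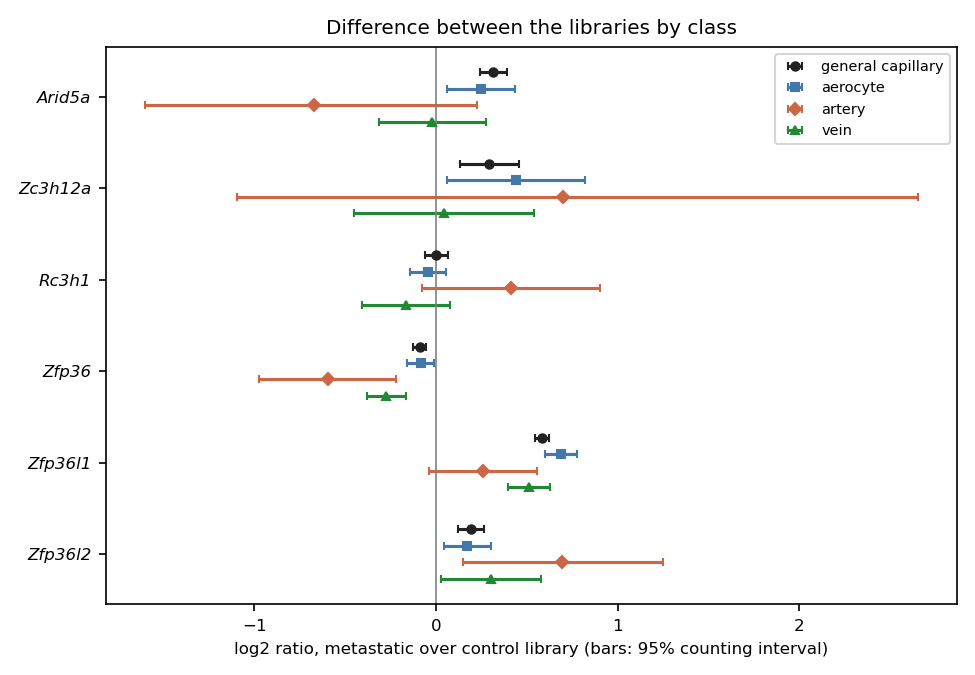
Log2 ratio of the metastatic over the control library (horizontal axis) for each gene in general capillary, aerocyte, artery and vein cells; bars are 95% counting intervals and the grey line marks equal levels. Zfp36l1 sits to the right of the line (0.26 to 0.69), in arteries with an interval that crosses it and a sign that turned to -0.27 in thinned cells, and Zfp36 to the left (-0.59 to -0.08), with a sign that turned in thinned aerocytes (0.09).

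**Figure D4:**
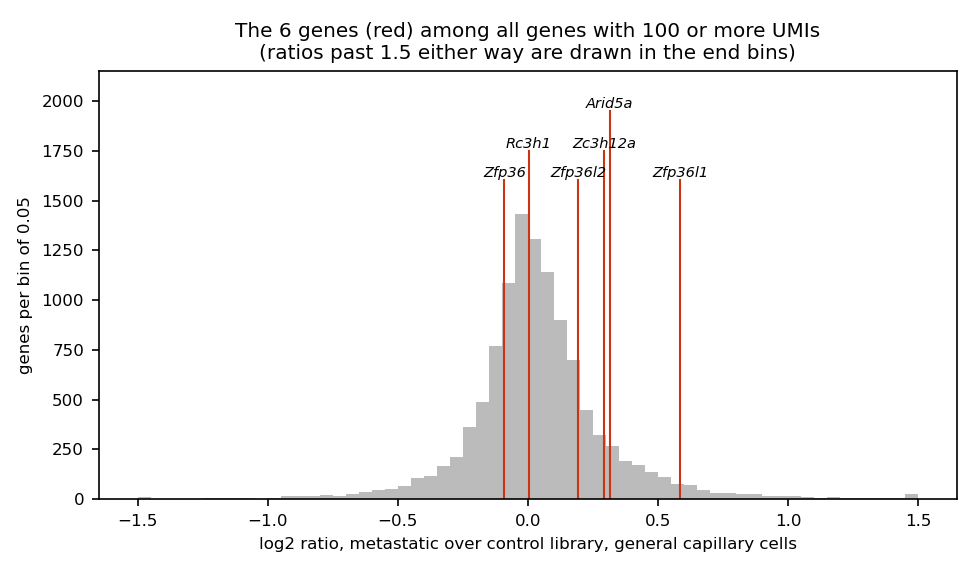
Distribution of the log2 ratio over the 11220 genes with 100 or more UMIs in general capillary cells (genes per bin of 0.05), with ratios past 1.5 either way collected in the end bins. Red lines mark the 6 genes, from Zfp36 at -0.09 to Zfp36l1 at 0.58, the latter in the upper tail where 3.39% of genes lie.

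Levels also differed among vessel types, in orders that were mostly shared by the libraries. Zfp36, Zfp36l1 and Zc3h12a were highest in veins. In control cells thinned to 2000 UMIs, however, Zc3h12a averaged 0.0285 UMIs in veins and 0.0336 in gCap ECs. Zfp36l1 averaged 0.829 UMIs in veins and 0.857 in arteries of the same thinned cells. Both genes stayed highest in veins in thinned metastatic cells. For Zfp36 the vein level exceeded that of gCap ECs by 0.42 on the log2 scale (0.34 to 0.50) in control and by 0.24 (0.16 to 0.32) in metastatic cells, and gCap ECs lay above aCap ECs and arteries. In the control library, arterial and aCap levels of Zfp36 did not differ beyond counting error (0.08, -0.17 to 0.31). Zfp36l1 was lowest in aCap ECs in both libraries, where gCap ECs exceeded aCap ECs by 0.87 (0.79 to 0.94) in control.

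Arid5a was highest in gCap ECs in both libraries, and the control levels in gCap and aCap ECs, 83.7 and 41.9 CPM, lay apart (interval of the log2 difference, aCap minus gCap, -1.14 to -0.86). The gCap and vein levels did not differ beyond counting error in control (log2 difference 0.04, -0.17 to 0.27) but did in metastatic cells (0.38, 0.18 to 0.59). Rc3h1 showed another order, with aCap ECs above gCap ECs by 0.28 (0.21 to 0.36) in control and 0.24 (0.15 to 0.32) in metastatic cells. The control Zfp36l2 levels lay between 83.4 and 96.1 CPM, with neighbours in the order within counting error but aCap below gCap ECs (-0.12, -0.23 to -0.02), and in the metastatic library only arteries stood above gCap ECs (0.49, 0.14 to 0.82). That artery level rested on 75 UMIs, and in thinned metastatic cells the mean was 0.203 UMIs in arteries and 0.216 in gCap ECs.

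Genes with the most similar course over the 8 profiles (4 classes in 2 libraries) were listed among 4676 genes, by Pearson's r of log2(CPM + 1), as a description over profiles that share libraries. Zfp36 was followed by Egr1 (r = 0.984), Fos (0.973) and Dll1 (0.965), of which Egr1 and Fos are immediate early transcription factors. Zfp36l1 was followed by Gbp5 (0.972), Flt1 (0.963), a VEGF receptor, and Skap2 (0.961). The closest to Arid5a were Tvp23b (0.955), Pcbp2 and Cdc42ep4, to Zc3h12a Arhgef5 (0.991), Tmsb10 and Hmgn1, to Rc3h1 Sec22b (0.979), Derl1 and Mat2b, and to Zfp36l2 Bbip1 (0.975), Snrpd1 and Zdhhc3. Between members, r was 0.88 for Zfp36 with Arid5a and 0.41 for Zfp36 with Zfp36l1.

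Immediate early genes respond to tissue digestion as well as to stimuli in the animal, so the members were read in cells with and without a Fos UMI. Fos was detected in 4000 of 5020 gCap ECs in the control library and in 3548 of 4519 in the metastatic library. The control Zfp36 level was 559.0 CPM in cells with and 83.2 CPM in cells without Fos (log2 difference 2.75, 2.61 to 2.89), and the metastatic levels were 523.2 and 105.8 CPM (2.31, 2.18 to 2.43). Arid5a was split nearly as far, at 96.3 and 21.5 CPM in control (2.16, 1.89 to 2.44) and 119.4 and 32.2 CPM in metastatic cells (1.89, 1.67 to 2.12).

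Zc3h12a differed by 1.33 and 1.43 on the log2 scale in the control and metastatic libraries, Zfp36l1 by 0.49 and 0.54, and Zfp36l2 by 0.33 and 0.40. Rc3h1 differed in the opposite direction, by -0.12 (-0.23 to -0.01) in control and -0.11 (-0.22 to 0.01) in metastatic cells. Cells with Fos were also deeper, with median depths of 6135 against 5086 UMIs in control.

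After thinning each gCap EC to 2000 UMIs, the order held at equal depth. The control Zfp36 level was 154.4 CPM in cells with no Fos UMI, 431.1 CPM in cells with 1 to 2 and 711.5 CPM in cells with 3 or more, and the metastatic levels were 161.7, 382.2 and 710.7 CPM. For Zfp36 the libraries differed by 0.07 on the log2 scale (-0.12 to 0.26) with no Fos UMI and by -0.17 (-0.31 to -0.04) at 1 to 2. At 3 or more Fos UMIs they differed by 0.00 (-0.08 to 0.07). Zfp36l1 rose less steeply along Fos, and the metastatic library lay above control in all 3 bins, by 0.45 (0.31 to 0.59), 0.63 (0.48 to 0.77) and 0.52 (0.43 to 0.62). Arid5a was above control in the same bins by 0.56 (0.17 to 0.96), 0.32 (0.04 to 0.60) and 0.28 (0.10 to 0.45).

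**Figure D5:**
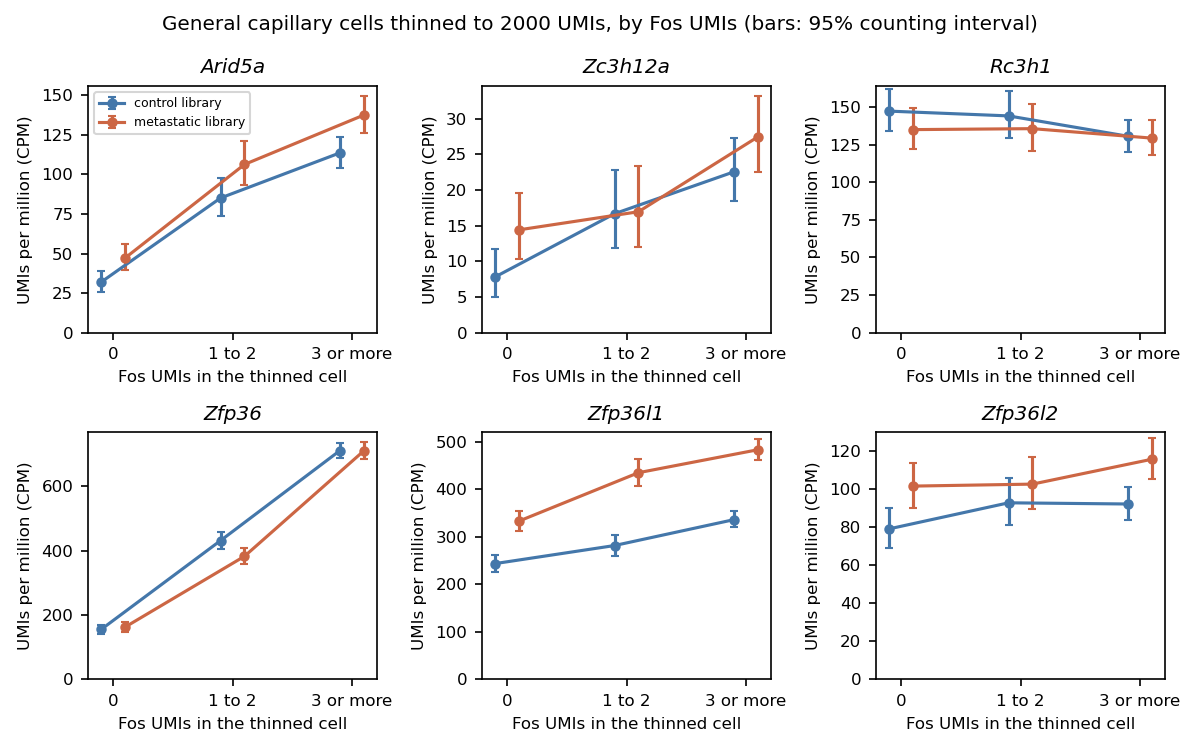
Level of each gene in CPM (vertical axis from 0) in general capillary cells thinned to 2000 UMIs, by the number of Fos UMIs left in the cell, in the control (blue) and metastatic (orange) library; bars are 95% counting intervals. Zfp36 climbs from 154.4 to 711.5 CPM in control cells, whereas the Zfp36l1 curves of the libraries run apart and Rc3h1 stays near 129 to 147 CPM.

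Of the 11 immediate early genes listed, 2 passed a log2 ratio of 0.32 in gCap ECs, against 10.5% of all genes, Nr4a1 (0.57, 0.38 to 0.76) and Atf3 (0.51, 0.48 to 0.54). None passed -0.32, against 5.87%, and the median was 0.01. Without Fos UMIs the gCap ratio was 0.35 (0.16 to 0.53) for Zfp36, against -0.10 (-0.13 to -0.06) with them, but at equal depth it was 0.07 (-0.12 to 0.26) in thinned cells with no Fos UMI. The corresponding values were 0.54 and 0.59 for Zfp36l1 and 0.59 and 0.31 for Arid5a. Zfp36 is in addition glucocorticoid-inducible, and in the 7 glucocorticoid-responsive genes the median was -0.73, with 5 (Zbtb16, Fkbp5, Per1, Tsc22d3 and Klf9) 1.5-fold or more lower, against 1.80% of all genes. Whether digestion or steroid levels had a part in the levels of the members was not tested.

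The activin subunit gene Inhbb, a marker of the reactive capillary state described by the study, was detected in 116 control and 338 metastatic gCap ECs. In the metastatic library, Inhbb-positive cells held 598.9 CPM of Zfp36l1 against 435.4 CPM in cells with no Inhbb UMI (log2 difference 0.46, 0.38 to 0.53). Arid5a stood at 139.4 and 100.6 CPM (0.47, 0.31 to 0.62) and Zc3h12a at 28.9 and 21.9 CPM (0.40, 0.04 to 0.74) in the same cells. Zfp36 and Zfp36l2 were lower in Inhbb-positive cells, at 373.9 against 457.7 CPM (-0.29, -0.38 to -0.20) and 89.9 against 111.8 CPM (-0.31, -0.51 to -0.13).

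In control cells the Inhbb difference was 0.22 (0.06 to 0.39) for Zfp36l1 and -0.32 (-0.48 to -0.16) for Zfp36. Its interval included 0 for Arid5a (-0.20, -0.58 to 0.16), Zc3h12a (0.06, -0.73 to 0.75) and Zfp36l2 (0.13, -0.19 to 0.43). Inhbb-positive cells were deeper, with a median of 7244 against 6193 UMIs in the metastatic library. In gCap ECs with no Inhbb UMI, which may still express the gene below detection, the log2 ratio of Zfp36l1 between the libraries was 0.54 (0.50 to 0.58).

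The machinery that executes decay had ratios on both sides of 0. All 38 listed subunits and cofactors of deadenylation, decapping and exonucleolysis were tested in gCap ECs, with a median log2 ratio of -0.01. At the limit of 0.32 either way, 1 was higher, against 10.5% of all genes, Btg1 (178.4 and 229.3 CPM; 0.36, 0.31 to 0.41), an antiproliferative deadenylation cofactor, and 1 lower, against 5.87%, Edc3 (64.1 and 46.1 CPM; -0.48, -0.57 to -0.38), an enhancer of decapping. The deadenylases Cnot6l (-0.317, -0.37 to -0.26) and Cnot6 (-0.23, -0.29 to -0.17) had smaller differences whose intervals left out 0, and their aCap ratios were -0.28 (-0.38 to -0.18) and -0.22 (-0.34 to -0.10). Of 17 other RNA-binding regulators 14 were tested and none passed in either direction; N4bp1, a Regnase-1-related endonuclease, had a ratio of 0.12 (0.05 to 0.19). Of 15 regulators of the members, among them kinases, a phosphatase, 14-3-3 proteins and a protease, 14 were tested and none passed. Their median was 0.10, and Bcl10 (0.25, 0.17 to 0.32) and the 14-3-3 protein Ywhah (0.22, 0.16 to 0.28) were the highest of those tested.

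Of 15 textbook targets of the Zfp36 family, 9 reached 100 UMIs in gCap ECs, 5 of these passed 0.32, against 10.5% of all genes, and none passed -0.32, against 5.87%. Their median log2 ratio of 0.55 was that of Ptgs2, whose 47 and 65 UMIs left an interval that included 0 (-0.01 to 1.125). The list was chosen with earlier results of these data known. The limit of 100 UMIs summed both libraries. Csf2 (1 and 134 UMIs) and Myc (31 and 190 UMIs) reached it only through the metastatic library, where they were higher. The count past 0.32 and the median therefore rest in part on this limit. Among targets below that limit, Tnf was lower (39 and 24 UMIs, log2 ratio -0.62, -1.41 to 0.15) and Cxcl1 higher (29 and 51 UMIs, 0.90, 0.21 to 1.61). Vegfa, the angiogenic growth factor, was found at 158.0 and 280.3 CPM (0.83, 0.78 to 0.88) and Myc at 31 and 190 UMIs (2.70, 2.15 to 3.30). Csf2, encoding GM-CSF, had 1 UMI in control and 134 UMIs in metastatic gCap ECs (7.15, 4.65 to 12.46), but those 134 came from 23 of 4519 cells and 89 of them from 5 cells. The most abundant targets lay close to the median of all genes, at 0.12 for Ier3, -0.04 for Dusp1 and -0.05 for Fos. Outside gCap ECs fewer targets were tested. In aCap ECs 1 of 4 passed 0.32 (9.50% of genes) and none -0.32 (5.15%), with a median of 0.14. In veins 3 of 6 passed 0.32 (12.0%) and none -0.32 (10.5%), with a median of 0.16. In arteries 1 of 4 passed in each direction (16.8% and 13.4%), with a median of 0.13.

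Of the 11 listed Zc3h12a and Rc3h1 targets 5 were tested, with a median of 0.41, and 3 passed 0.32, against 10.5% of all genes. The intervals of 2 of these included 0, Tfrc (0.41, -0.04 to 0.87) and Ptgs2, which also stands in the former list. The third was the NF-kB regulator Nfkbid (111 and 161 UMIs; 0.62, 0.26 to 0.98). Of the 4 Arid5a targets only Stat3 could be tested (145.0 and 162.2 CPM; 0.16, 0.10 to 0.22). Il6, the target on which Arid5a, Regnase-1 and Zfp36 converge, was not detected in control and had 4 UMIs in metastatic gCap ECs, too few for a comparison.

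Genes were also grouped by the number of nonamers in the 3′ UTR. In gCap ECs the median log2 ratio was 0.02 for the 9854 genes with no site, -0.01 for the 698 with 1 site, 0.04 for the 115 with 2 and 0.02 for the 73 with 3 or more. The share of genes at 0.32 or more was 10.4%, 10.6%, 13.0% and 10.96% in the same order. The share at -0.32 or less was 5.49%, 5.73%, 3.48% and 1.37%, the last of these being 1 gene. By ATTTA pentamers the medians were 0.04 for genes with none, 0.03 with 1, 0.01 with 2 and 0.01 with 3 or more, and the shares at 0.32 or more were 11.7%, 11.4%, 10.1% and 9.25%, over 3′ UTRs of rising median length (422 to 2430 bases). The part of length in this order was not tested. Among the targets named above, Csf2 had 4 nonamers, Vegfa 1 and Myc 0.

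Barcodes of 11 to 50 UMIs, which were taken as RNA outside cells, also carried the members. Zfp36 stood there at 230.0 CPM (control) and 218.2 CPM (metastatic) and Zfp36l1 at 257.4 and 207.3 CPM. Only 995 of the 25507 such barcodes of the control library and 945 of the 26993 of the metastatic library were absent from the other library. Over all such barcodes 4 melanoma markers summed to 5162 and 5166 CPM, although the control mice received PBS. These levels cannot be assigned to 1 library, and whether they are the free RNA of either cell suspension was not tested. In gCap ECs the same melanoma markers summed to 1.81 and 2.31 CPM. Cells with 3 or more leukocyte markers and at most 1 endothelial marker, 70 in each library, expressed Zfp36l2 at 587.7 and 534.0 CPM, above all EC classes, and Zfp36l1 at 414.4 and 348.9 CPM.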

How the data were processed

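Lung PECAM1-positive cells were profiled with a 10x 3′ kit, and the authors deposited raw counts, UMI counts per gene and barcode, of 67929614 UMIs (control) and 64733724 UMIs (metastatic). The file headers name Cell Ranger 3.1.0, and the submitters' notes name mm10. UMIs were summed per class and library and scaled to CPM. Ratios carry 95% exact conditional binomial intervals, levels exact Poisson and shares Clopper-Pearson intervals, all for counting error only. Genes with 100 or more UMIs over both libraries in a class were compared, at limits of 0.32 on the log2 scale and of 1.5-fold, with no p-value, as each group is 1 library. Named genes were the members, the list genes past 1.5-fold in gCap ECs (at most 6 a list, otherwise the 2 with the largest ratio) and the 3 most similar genes over the profiles. Other list genes (Ier3, Dusp1, Fos, Il6, Ptgs2, Tfrc, Tnf, Cxcl1, Cnot6 and Cnot6l) were named after their values were seen. A further list gene that the rule names is not reported here. Members and lists were chosen with earlier results of these data known. Doublets were not called; the top 6% of barcodes by UMIs were left out as an alternative. The ratio was checked on simulated counts. Python 3.11.15, numpy 2.4.6, scipy 1.17.1, pandas 2.3.3 and edgeR 4.0.16 (TMM only) were used.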

Additional observations from a re-analysis of the deposited data

Results flagged for a closer look

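Called barcodes that met no class, which the comparisons left out, also held Zfp36l1, at 356.3 CPM in the 466 metastatic and 305.4 CPM in the 394 control barcodes (log2 ratio 0.22, 0.07 to 0.37). It is listed because the metastatic level lies above the control level in cells outside the main comparison. These barcodes also held 17556 and 14408 CPM of epithelial and 3830 and 3512 CPM of leukocyte markers (control, metastatic), whose part was not tested. In the 48 control and 107 metastatic barcodes among them with 3 or more endothelial markers and fewer than 2 of any other cell type, Zfp36l1 was at 341.8 and 318.7 CPM, with overlapping intervals. Over all called barcodes of no class, the other family members were lower in the metastatic library. Their log2 ratios were -0.29 (-0.44 to -0.15) for Zfp36 and -0.28 (-0.43 to -0.13) for Zfp36l2.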

How the results depend on the processing

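Each ratio was recomputed under 15 alternatives, 14 planned and 1 added after seeing the data (barcodes with leukocyte, platelet, mesenchymal or lymphatic markers left out); the Fos split of thinned cells was likewise added after seeing the data. No paired analysis was possible because each group has 1 library, and for the same reason no replicate could be left out. The gCap log2 ratio ranged from 0.52 to 0.65 for Zfp36l1, from 0.28 to 0.59 for Arid5a, from 0.15 to 0.31 for Zc3h12a, from 0.13 to 0.29 for Zfp36l2, from -0.06 to 0.01 for Rc3h1 and from -0.13 to 0.35 for Zfp36. In gCap ECs, leaving out barcodes with 2 or more markers of another cell type gave 0.40 for Arid5a and -0.13 for Zfp36. Cells without a Fos UMI gave 0.59 for Arid5a, 0.35 for Zfp36 and 0.54 for Zfp36l1. Thinning gave -0.064 for Rc3h1, 0.52 for Zfp36l1 and 0.29 for Zfp36l2, and subtracting free RNA at a fixed share of 10% gave 0.65 for Zfp36l1. That share is an assumption, and the true share was not settled. Over 6 genes of other cell types the lowest ratio of cells to free RNA was 55.5% in control and 26.3% in metastatic gCap ECs. The melanoma markers would leave room for far less than 10%. They stood at 5162 and 5166 CPM in barcodes of 11 to 50 UMIs, but at 1.81 and 2.31 CPM in gCap ECs. Among ratios of 0.32 or more either way, signs turned in cells without a Fos UMI for Zc3h12a in aCap ECs (-0.011) and, in arteries, for Arid5a (0.55), Zc3h12a (-2.03) and Zfp36 (0.26). They also turned after thinning in arteries for Arid5a (0.58) and Zfp36l2 (-0.021). Of the smaller ratios, those of Zfp36 (0.24), Zfp36l2 (-0.31), Arid5a (1.27) and Rc3h1 (0.22) in veins and of Arid5a (-0.08) and Zfp36 (0.04) in aCap ECs turned without a Fos UMI, and those of Zfp36l1 in arteries (-0.27), Rc3h1 in veins (0.33) and Arid5a (-0.26) and Zfp36 (0.09) in aCap ECs after thinning, among others near 0. In control, the artery over gCap ratio of Arid5a became 0.0015 without marker-bearing barcodes. Grouping by ATTTA in place of the nonamer gave medians of 0.04 and 0.03 for genes with 0 and 1 site. The cause was not tested; the artery values rest on few UMIs. TMM and median-of-ratios scaling moved gCap ratios by 0.02 and 0.03.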
